A study of Mus musculus with 116 samples.

Results

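SVEC single-cell libraries with the most reads from Malat1 were set against those with the fewest, across every other gene. Malat1 and Neat1 are long noncoding RNAs that are made by neighbouring genes and stay in the nucleus. Malat1 lies in nuclear speckles, bodies rich in splicing factors, and the long form of Neat1 is the scaffold of paraspeckles, bodies that hold RNA-binding proteins and some retained transcripts. Because these RNAs do not leave the nucleus, they are often used to follow nuclear material in a sample of cell RNA, while mitochondrial transcripts and most ribosomal protein mRNAs lie outside it.

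The study measured 116 libraries from 2 mouse cell lines, SVEC, labelled as endothelial cells, and C10, labelled as alveolar type II epithelial cells. The libraries were made with nanoSPLITS, in which the lysate of a cell is held in a nanodroplet and divided, so that one portion goes to RNA sequencing and the other to protein measurement. All cells were grown under standard culture, with no treatment and no genetic change in the labels, and only the RNA counts were analysed. The labels name no culture, passage or plate for a library, so p-values measure the spread between single-cell libraries of 1 labelled line, which may be technical. The RNA files hold no direct measurement of how much of a nucleus entered the sequenced portion.

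Of 48 SVEC single-cell libraries, 42 held at least 100000 counts over genes. They were ranked by Malat1 CPM (the gene's share of all gene counts, scaled to a total of 1000000). The 14 highest formed the Malat1-high group, the 14 lowest the Malat1-low group, and the 14 between them were kept out of the comparison. Libraries are named by the number in their label. For every other gene, Malat1 was first removed and CPM computed on what remained.

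The groups were chosen by Malat1 CPM, so its values are a description with no test. In the Malat1-high group it ran from 9857 to 74203 CPM with a median of 25993, and in the Malat1-low group from 0 to 351 CPM with a median of 131. The 14 libraries between lay from 412 to 8340 CPM. The upper boundary fell between library 30, at 9857 CPM (95% Wilson interval 9658 to 10059), and library 19, at 8340 CPM (8234 to 8446). The lower boundary fell between library 29, at 412 CPM (367 to 462), and library 38, at 351 CPM (289 to 427), whose intervals overlap. Libraries 26, 33 and 35 had no Malat1 count at all, which at their totals allows up to 3.79 to 5.76 CPM. Intervals and limits cover counting error only, since reads were counted without molecular identifiers.

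The ends of the Malat1 and Neat1 RNAs are shown because these transcripts share an element there. It is a pair of U-rich tracts and an A-rich tract that fold into a triple helix, which protects RNAs that end without an ordinary poly(A) tail. The stretches shown need not hold the whole element, and the capitals do not mark the pair of U-rich tracts. Capitals mark AAAAGCAAAA, the last 10 bases of the Neat1 model, and its reverse complement TTTTGCTTTT. Both come from GENCODE release M21 on GRCm38, minus strand, in the DNA alphabet. Malat1 is at chr19:5795982-5796047, exonic, bases 6626 to 6691 of the 6983-base transcript model. Neat1 is at chr19:5824708-5824780, exonic, bases 20699 to 20771 of the 20771-base model and its very end.
Malat1: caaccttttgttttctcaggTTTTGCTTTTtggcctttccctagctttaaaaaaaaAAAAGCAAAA
Neat1: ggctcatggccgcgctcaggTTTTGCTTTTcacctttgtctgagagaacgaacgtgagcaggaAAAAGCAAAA
Read along the transcript strand only, both motifs occur in this order within 100 bases in 4 of 141767 annotated transcripts (0.00282%), which belong to 3 genes, Malat1, Neat1 and Retreg3. The match is a description of the letters and says nothing about how either RNA was captured.

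In SVEC, Neat1 was higher where Malat1 was high. In the Malat1-high group it ran from 0 to 1052 CPM with a median of 190 and was detected in 13 of 14 libraries, library 39 being the exception. It had 0 counts in all 14 Malat1-low libraries, so the groups met only at 0. The mean was at least 48.6-fold higher in the Malat1-high group, taking 3 counts per library as the floor in the Malat1-low group (edgeR quasi-likelihood test, adjusted p = 3.3e-05). Among the libraries between the groups, Neat1 was detected in 3 of 14: library 19 at 292 CPM and library 23 at 225 CPM, the highest and second in Malat1 there, and library 15 with 1 count.

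**Figure D1:**
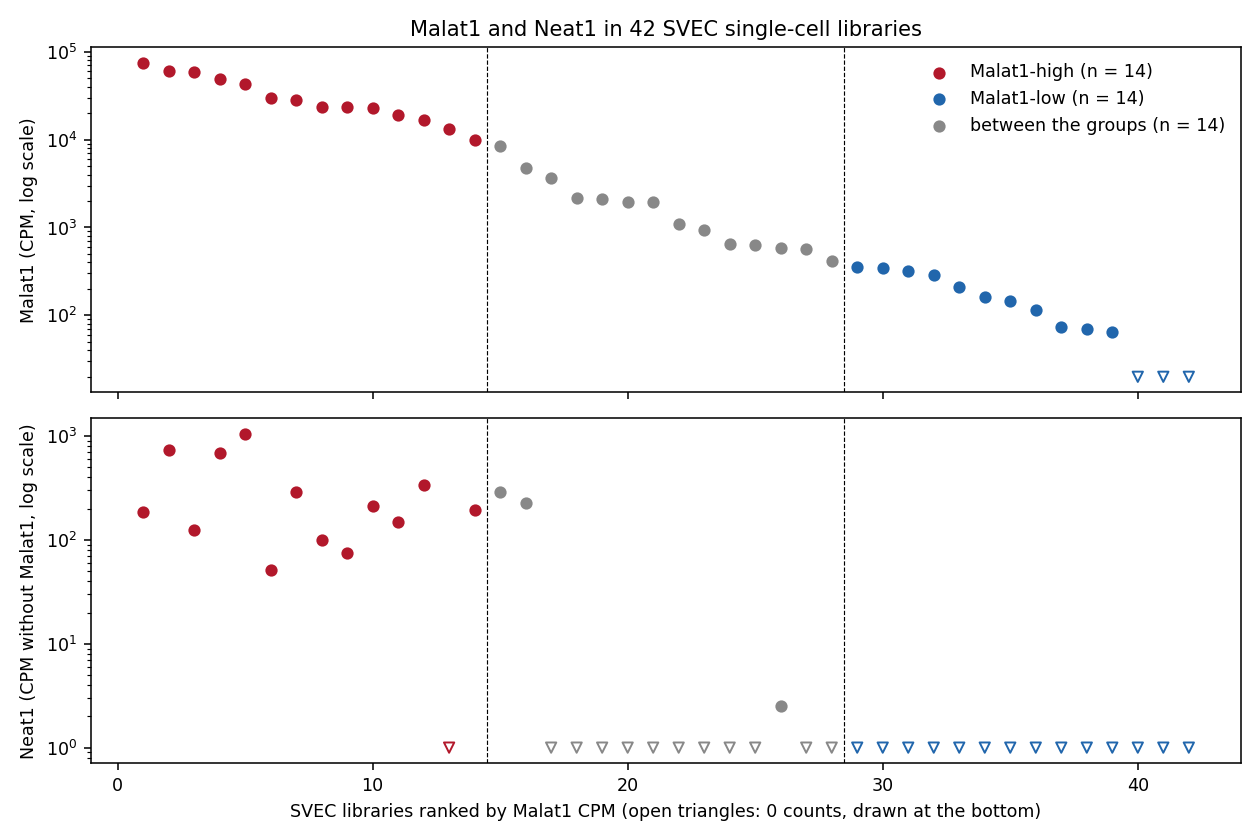
Malat1 CPM (upper panel) and Neat1 CPM computed without Malat1 (lower panel), both on log axes, in the 42 SVEC libraries ranked by Malat1. Points are libraries, open triangles are libraries with 0 counts, and dashed lines separate the 14 Malat1-high, 14 intermediate and 14 Malat1-low libraries; 13 of the 16 libraries with Neat1 lie in the Malat1-high group and none in the Malat1-low group.

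The other long noncoding RNAs known for roles in the nucleus were measured less well. The list held 17 genes, 9 of which had 0 counts in all 28 libraries of the comparison, and 5 could be tested. Of these, Neat1 and Ftx rose, against 6.65% of all 6121 tested genes called higher at an adjusted p under 0.05. All 5 passed the filter through the Malat1-high group alone. Of the 2806 genes that passed in this way, 13.7% were called higher. The 2 of 5 are therefore a description and do not set the list apart. Ftx, a regulator of X inactivation, ran from 0 to 255 CPM with a median of 0.464 in the Malat1-high group and from 0 to 3.48 CPM in the Malat1-low group. It was detected in 7 and 2 libraries (log2 fold change 5.99 ± 1.32 SE, edgeR adjusted p = 0.00173), so the groups overlapped, and limma's adjusted p was 0.0645. Airn, the imprinted RNA antisense to Igf2r, was detected in 9 Malat1-high libraries and 1 Malat1-low library, and the tools differed on it: it did not pass in edgeR (log2 3.00 ± 1.51, adjusted p = 0.386) and did in limma (adjusted p = 0.0194). Library 45, in the Malat1-low group, decided the edgeR value for Airn, since without it the Airn log2 fold change was 9.22 (edgeR adjusted p = 0.00133). Library 45 was the 1 Malat1-low library with Airn, so 9.22 is fitted against a group with no counts and depends on the prior count. Tug1 had a log2 difference of 0.43 ± 1.29 and Pvt1, a neighbour of Myc, of -0.16 ± 1.31, each with an edgeR adjusted p of 0.997. In limma the difference of Pvt1 had the other sign, 3.19 (adjusted p = 0.0683), and Tug1 did not pass either (adjusted p = 0.301). The highest Pvt1 value of the comparison, 1050 CPM, was in a Malat1-low library, while the highest in the Malat1-high group was 171 CPM.

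The Malat1-high libraries showed more genes at the same depth. They held 6026 ± 969 genes with at least 1 count (mean ± SD, n = 14), against 3974 ± 824 (SD, n = 14), a difference of 2052 (two-sided permutation test, 100000 resamples, adjusted p = 0.0001). After every library was thinned to 100000 counts, the means were 5185 ± 784 and 3424 ± 662, a difference of 1761 with the same adjusted p. With a depth limit of 50000 counts and the ranks taken again, the difference was 1466 and did not pass (permutation test, adjusted p = 0.0846). Total gene counts ran from 197812 to 1596561 in the Malat1-high group and from 200062 to 2103453 in the Malat1-low group. Their log2 means without Malat1 differed by -0.17 (permutation test, adjusted p = 0.774). Genes detected overlapped between the groups, from 4132 to 7843 and from 1999 to 4823.

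Mitochondrial transcripts took a smaller share in the Malat1-high libraries. The 37 genes of the mitochondrial genome held 2.68 ± 1.53% of counts without Malat1 (SD, n = 14) against 4.46 ± 1.50% (SD, n = 14), lower by 1.78 points in a permutation test (difference -1.78 percentage points, adjusted p = 0.0119). The groups overlapped almost entirely in range, from 1.11 to 6.63% and from 2.01 to 6.64%, with medians of 2.34 and 4.59%. This difference depends on the depth limit: with a limit of 50000 counts it was +1.70 points (permutation test, adjusted p = 0.492), since libraries 24 and 48, with 28.7% and 22.8% mitochondrial counts, then enter the Malat1-high group. With the 10 highest against the 10 lowest libraries it was -1.42 points (adjusted p = 0.144). Cytosolic ribosomal protein genes held a median of 2.99% of counts in the Malat1-high group and 4.22% in the Malat1-low group, given as a description.

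Reads outside annotated features were not shown to differ. They numbered 5.10 ± 1.04 per 100 gene counts in Malat1-high libraries and 5.22 ± 1.09 in Malat1-low libraries (SD, n = 14 each; difference -0.12, permutation test, adjusted p = 0.774). Reads that did not align made up 36.9 ± 7.34% and 33.3 ± 14.8% of reads (difference 3.61 points, adjusted p = 0.753). Whether reads inside introns were counted to a gene or left out is not given in the sources used here, so this counter is not a measure of unspliced RNA.

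**Figure D2:**
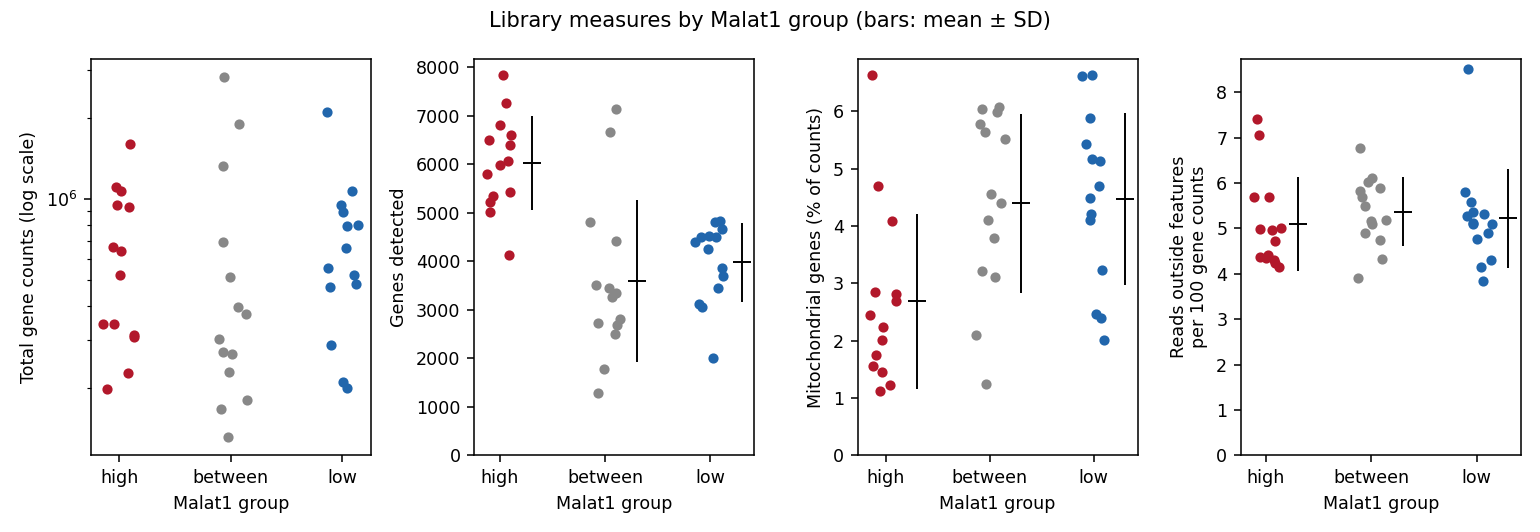
Total gene counts (log axis), genes detected, mitochondrial share of counts and reads outside annotated features per 100 gene counts in the Malat1-high, intermediate and Malat1-low SVEC libraries (14 each). Points are libraries and bars show the mean ± SD; genes detected average 6026 in the Malat1-high group and 3974 in the Malat1-low group, while the totals of these groups span similar ranges.

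Across genes the change ran nearly all one way. The test covered 6121 genes that 50% or more of a group's libraries showed, and 413 (6.75%) passed an adjusted p of 0.05 in edgeR: 407 were higher in Malat1-high libraries and 6 (0.098%) were lower. At an unadjusted p under 0.05 there were 828 genes. Over all tested genes the median of the log2 fold changes was 0.45, and 0.22 when scaled by library totals alone, so a gene at 0 on this scale is lower than the typical tested gene. With the number of genes detected as a covariate, the measure that differed most between the groups, the median was -0.08 and 195 genes passed. With limma on log2(CPM + 1) 762 genes passed, and both tools called 322 genes higher (5.26%) and 4 lower. On simulated counts for this comparison, 17.8% of edgeR's calls were unchanged genes at a true log2 change of 4, and none of the calls made by both tools were. The simulation raised as many genes as it lowered and set no general difference in genes detected between the groups. Its shares of false calls may therefore not hold for the calls made here.

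The filter shaped this count. Of the 407 higher genes, 384 passed the filter through the Malat1-high group alone, where a gene has to differ to be tested at all. Among the 3315 genes that 50% or more of the Malat1-low libraries showed, 23 rose and 6 fell, and their median log2 fold change was 0.05. No count at all was found in any Malat1-low library for 123 of the genes called higher. Of the 6 lower genes, 3 passed the filter through the Malat1-low group alone: Bckdha, Gm31340 and Gm40554.

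The genes with the largest folds that both tools called and at least 75% of Malat1-high libraries showed, 94 being eligible, were led by Neat1 and Mir100hg. All 12 named passed the filter through the Malat1-high group alone and were then picked for large folds. Values at or near 0 in the Malat1-low group follow in large part from this choice, so their folds are a description. Mir100hg, the host transcript of miR-100, let-7a-2 and miR-125b-1, ran from 0 to 1009 CPM with a median of 216 in the Malat1-high group and was detected in 13 libraries. It had 0 counts in every Malat1-low library, so its mean was at least 41.7-fold higher (edgeR adjusted p = 0.000102). Pbx3, a homeodomain transcription factor, ran from 0 to 643 CPM with a median of 146 and was detected in 12 libraries. It too had 0 counts in the Malat1-low group and was at least 35.9-fold higher (edgeR adjusted p = 0.000198). Mecom, a zinc-finger transcription factor, was detected in 12 Malat1-high libraries, from 0 to 777 CPM with a median of 54.3, and in no Malat1-low library (at least 22.0-fold, edgeR adjusted p = 0.000449). Library 2, between the groups with 657 CPM of Malat1, had 540 CPM of Mecom. These 4 genes gave groups that met only where a Malat1-high library was also at 0.

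The other 8 of the 12 had 0 or nearly 0 counts in Malat1-low libraries and code for proteins of unrelated roles. Rbm26 encodes an RNA-binding protein and was at least 21.9-fold higher, from 0 to 522 CPM with a median of 18.5. Rapgef6, an exchange factor for the GTPase Rap, was at least 18.4-fold higher, with a median of 56.8 CPM. Pan3, a subunit of a poly(A) nuclease, was at least 16.7-fold higher, with a median of 26.3 CPM. Their edgeR adjusted p-values were 0.000409, 0.000727 and 0.00063, and none of them was detected in a Malat1-low library. Library 15, between the groups with 587 CPM of Malat1, held 1470 CPM of Rbm26 and 434 CPM of Pan3, above every Malat1-high library. The calls of Rbm26 and Pan3 were lost with Malat1 as a continuous term. Ppp1r12b, a regulatory subunit of myosin phosphatase, was at least 14.2-fold higher, Exoc4, a subunit of the exocyst, at least 13.2-fold and Setbp1, which encodes a SET-binding protein, at least 12.6-fold (edgeR adjusted p = 0.000421, 0.000623 and 0.0005). Dhx30, an RNA helicase, was detected in 12 Malat1-high libraries with a median of 120 CPM and a highest value of 251 CPM, and reached 0.475 CPM in the single Malat1-low library that had it (log2 fold change 8.73 ± 1.26 SE, edgeR adjusted p = 5.7e-05). Nav3, a neuron navigator family member and the last of the 12, was detected in 13 Malat1-high libraries, with a median of 83.2 CPM and a highest value of 604 CPM, and in 2 Malat1-low libraries up to 2.11 CPM (log2 8.80 ± 1.31, edgeR adjusted p = 8.5e-05). In the RefSeq annotation of GRCm38.p6, 6 of these 12 genes overlap another annotated gene, and without a stated strand setting reads from such partners cannot be told apart.

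**Figure D3:**
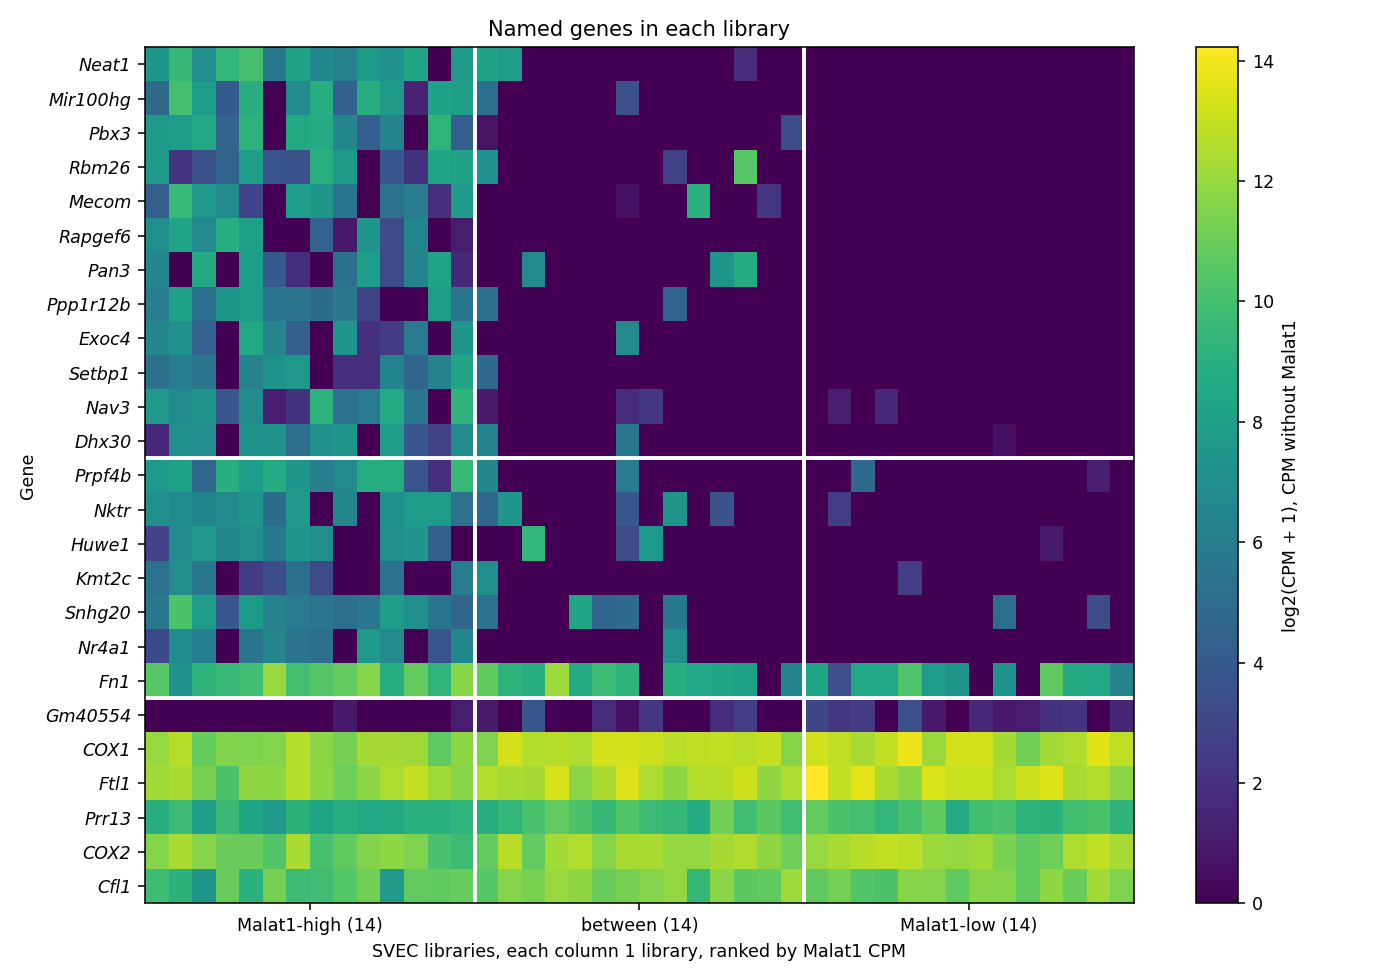
log2(CPM + 1), computed without Malat1, of 25 genes (rows) in the 42 SVEC libraries (columns, ranked by Malat1; white lines separate the 14 Malat1-high, 14 intermediate and 14 Malat1-low libraries). The upper block holds the 12 genes with the largest folds, the middle block 7 called members of other gene lists and the lower block the 6 genes named on the lower side; in the upper block only Nav3 and Dhx30 show any count in Malat1-low libraries.

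A single gene had groups that did not overlap, 0.0163% of those tested, and it is named after its values were seen. Gm33596, a predicted long noncoding RNA, was detected in all 14 Malat1-high libraries, from 4.32 to 48.3 CPM with a median of 25.4. In the Malat1-low group it was detected in 1 library, at 0.937 CPM. The log2 fold change was 6.63 ± 0.92 SE (edgeR adjusted p = 4.4e-05). RefSeq places it on another chromosome than Malat1, and whether its sequence resembles Malat1, so that reads of one could be counted to the other, was not tested. Over all tested long noncoding RNAs, 19 of 126 rose (15.1%) and 3 fell, beside 387 of 5934 protein-coding genes (6.52%) that rose. The median log2 fold change was 0.32 for the long noncoding RNAs, below 0.46 for the protein-coding genes, and these shares were not split by the filter. Mir99ahg, the host transcript of miR-99a, let-7c and miR-125b-2, was also named after its values were seen: it had 88.9 ± 81.1 CPM (SD, n = 14) and was detected in every Malat1-high library, against 1.14 ± 4.26 CPM and 1 library (edgeR adjusted p = 0.00136).

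Genes of splicing and RNA processing, several of them known for detained introns that keep part of their transcripts in the nucleus, held members that rose. Of 42 tested, of which 23 were seen in 50% or more of the Malat1-low libraries, 7 rose and none fell in edgeR, beside 6.65% of all genes. In limma 20 rose, beside 12.4% of all genes that it called in either direction. The median log2 fold change was 1.28 beside 0.45 for all genes. Members not seen that often in Malat1-low libraries, Prpf4b and Nktr among them, passed the filter through the Malat1-high group alone. The list median and these counts are therefore a description. Prpf4b, a kinase of the splicing machinery, ran from 2.95 to 769 CPM with a median of 211 in the Malat1-high group, where every library had it. In the Malat1-low group 2 libraries had it, up to 28.6 CPM, so 11 Malat1-high libraries lay above every Malat1-low one (log2 7.44 ± 1.26 SE, edgeR adjusted p = 0.000409). Nktr, a cyclophilin with an SR-rich tail, had a median of 111 CPM and a highest value of 230 CPM in 12 Malat1-high libraries, against 5.02 CPM in the 1 Malat1-low library that had it (log2 7.73 ± 1.32, edgeR adjusted p = 0.000409). The other 5 that rose, named after their values were seen, were Arglu1, Pnisr, Luc7l2, Son and Hnrnpa2b1, all of which code for RNA-binding proteins or proteins of splicing. Son, a scaffold protein of nuclear speckles, had 407 ± 234 CPM against 68.4 ± 54.7 CPM (SD, n = 14 each; edgeR adjusted p = 0.0154). Hnrnpa2b1 was detected in all 28 libraries at 1843 ± 1071 against 1036 ± 496 CPM (edgeR adjusted p = 0.00731), a call that limma did not make (adjusted p = 0.101). Among 11 tested genes of paraspeckle proteins 1 rose, Zc3h6, with a median of 0.322 CPM in the Malat1-high group and 0 in the Malat1-low group (edgeR adjusted p = 0.0468, limma 0.194).

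Chromatin regulators and other nuclear proteins with long mRNAs held members that rose. Of 23 tested, 18 passed the filter through the Malat1-high group alone, so the list median of 3.03 is a description and supports nothing. In edgeR 7 rose, beside 6.65% of all genes, 5 of them named after their values were seen. In limma 13 rose, beside 12.4% of all genes called in either direction. Huwe1, a ubiquitin ligase, had a median of 101 CPM and a highest value of 199 CPM in 11 Malat1-high libraries, against 1.05 CPM in 1 Malat1-low library (log2 8.41 ± 1.32 SE, edgeR adjusted p = 0.000188). Kmt2c, a histone H3K4 methyltransferase, had a median of 9.08 CPM and a highest value of 132 CPM, against a highest value of 5.00 CPM (log2 6.41 ± 1.24, edgeR adjusted p = 0.000805). Setd2, Chd1, Chd2, Atrx and Birc6 were the others that rose. Atrx, a chromatin remodeller, had 297 ± 265 CPM and was detected in all 14 Malat1-high libraries, against 16.0 ± 52.8 CPM and 2 Malat1-low libraries (edgeR adjusted p = 0.0155).

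The length of the gene went with the calls. Genes called higher had a median span in GENCODE M21 of 87910 bases from first to last exon, against 25024 bases for all tested genes, with 97.1% of each set matched by symbol. Their median exonic length was 8174 against 4486 bases. With the genes in 10 equal bins of span, the share called higher went from 1.34% of the shortest genes, up to 4502 bases, to 23.7% of the longest, from 136092 bases. Genes called higher were also low in abundance, so 3 bins of span were compared within 3 bins of mean CPM. There the share rose from 4.61% of short genes to 24.2% of long genes among the least abundant, and from 0.109% to 4.01% among the most abundant. Among genes seen in 50% or more of the Malat1-low libraries, in 5 bins of span, the share was 0.156% in the shortest bin and 2.81% in the longest. Genes are not independent replicates, and span, exonic length and abundance were not separated further.

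**Figure D4:**
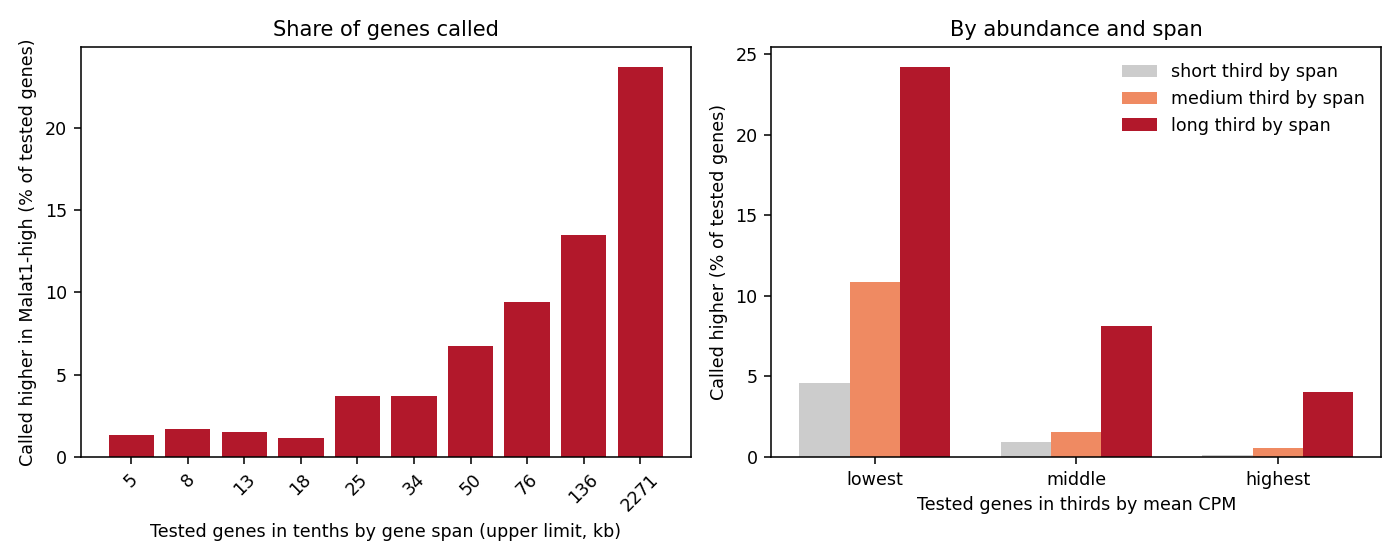
Share of tested genes called higher in Malat1-high libraries (edgeR adjusted p under 0.05), in 10 equal bins of gene span (left, labelled with the upper limit in kb) and in 3 bins of span within 3 bins of mean CPM (right). Bars start at 0; the share goes from 1.34% in the shortest bin to 23.7% in the longest, and in each abundance bin the long genes have the highest share.

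Among the genes seen in 50% or more of the Malat1-low libraries, the longest of the 5 bins of span had a median log2 fold change of 0.41, beside 0.05 for all genes seen this often, and 18 of its 640 genes rose. The following 3 genes of this kind were named after their values were seen and lie far above that median. Zbtb20, a zinc-finger transcription factor, was detected in all 28 libraries and had 438 ± 226 CPM in the Malat1-high group against 121 ± 94.4 CPM (SD, n = 14 each; log2 2.05 ± 0.49 SE, edgeR adjusted p = 0.00431). Ahnak, a very large scaffold protein, had 533 ± 337 against 61.5 ± 91.4 CPM (log2 3.34 ± 0.87, edgeR adjusted p = 0.00973). Prrc2c, a large protein with proline-rich repeats, had 655 ± 525 against 88.1 ± 130.0 CPM (log2 3.27 ± 0.87, edgeR adjusted p = 0.0111).

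Genes for ribosomal proteins and for mitochondrial respiration had list medians below that of all genes, and few passed the test. None of 79 tested cytosolic ribosomal protein genes and none of 76 nuclear-encoded genes of oxidative phosphorylation passed in edgeR in either direction, and 1 member of each list was lower at an unadjusted p under 0.05. In limma 1 ribosomal protein gene was lower, and of the oxidative phosphorylation genes 1 was lower and 1 higher. The median log2 fold changes were -0.21 for both lists, and 2 members of each lay above the all-gene median of 0.45. That median includes genes that passed the filter through the Malat1-high group alone, whose own median was 1.32. All 79 ribosomal protein genes and 75 of the 76 oxidative phosphorylation genes met the filter in the Malat1-low group. The median of all genes that met it there was 0.05, so the lists lay less far below genes of their kind. Rplp0, a protein of the ribosomal stalk, had medians of 1120 and 1779 CPM (log2 -0.57, edgeR adjusted p = 0.198). Atp5b, a subunit of ATP synthase, had medians of 1468 and 2687 CPM (log2 -0.59, edgeR adjusted p = 0.207).

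Of 15 tested mitochondrially encoded genes 1 fell in edgeR and 3 in limma, and 1 lay above the all-gene median. All 15 met the filter in the Malat1-low group. Their median log2 fold change was -0.52, beside 0.05 for all genes that met it there. COX1, which encodes cytochrome c oxidase subunit 1, ran from 1622 to 6639 CPM with a median of 3534 in the Malat1-high group and from 2333 to 14260 CPM with a median of 7459 in the Malat1-low group. The ranges overlapped, and 8 Malat1-low libraries lay above every Malat1-high one (log2 -0.70 ± 0.21 SE, edgeR adjusted p = 0.0343). COX2, its partner subunit, had medians of 2441 and 4934 CPM (log2 -0.65 ± 0.25, edgeR adjusted p = 0.158; limma 0.0116). With the number of genes detected as a covariate the mitochondrial list's median was -0.03, above the all-gene median of -0.08, and COX1 no longer passed.

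The lower side held few genes besides. Ftl1, the light chain of the iron store ferritin, ran from 1219 to 7897 CPM with a median of 3654 in the Malat1-high group and from 3501 to 19060 CPM with a median of 7958 in the Malat1-low group (log2 -0.77 ± 0.24 SE, edgeR adjusted p = 0.0394). In 7 Malat1-low libraries it lay above every Malat1-high value. The call was lost in 14 of the 28 fits that left out 1 library, and that of COX1 in 13. Gm40554, a predicted noncoding RNA, was at or under 10.0 CPM in the 28 libraries of the comparison. It was detected in 2 Malat1-high and 11 Malat1-low libraries (log2 -2.59 ± 0.71, edgeR adjusted p = 0.0145). Prr13 and Cfl1, the latter the actin-severing protein cofilin, had log2 values of -0.77 and -0.79 and did not pass (edgeR adjusted p = 0.149 and 0.176). The other 3 that passed were Bckdha, a subunit of branched-chain keto acid dehydrogenase, and the predicted genes Gm31340 and Gm42225, named after their values were seen. Bckdha was detected in 7 Malat1-low libraries, up to 99.9 CPM, and in no Malat1-high library (edgeR adjusted p = 0.00213).

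Among genes induced within minutes of a stimulus and in the lists of matrix, interferon and snoRNA host genes, few members passed. Beside 6.65% of all tested genes called higher in edgeR, these were 2 of 22 immediate early genes, 1 of 20 extracellular matrix genes, 1 of 37 interferon-stimulated genes and 1 of 9 snoRNA host genes, too few to set any of these lists apart. Nr4a1 and Fosb were the immediate early genes, with a list median of 1.30. Nr4a1, an orphan nuclear receptor, was detected in 11 Malat1-high libraries, up to 205 CPM with a median of 42.5, and in no Malat1-low library, at least 9.55-fold higher (edgeR adjusted p = 0.000509). Fosb, an AP-1 subunit, had a median of 39.7 CPM in the Malat1-high group against 0, and 1 Malat1-low library at 64.0 CPM (log2 4.61 ± 1.45 SE, edgeR adjusted p = 0.0453). The call of Fosb was lost in 22 of the 28 fits that left out 1 library. The matrix gene, Fn1, in a list with a median of 1.60, encodes fibronectin and ran from 152 to 4099 CPM with a median of 1181 in the Malat1-high group and from 0 to 1684 CPM with a median of 276 in the Malat1-low group (log2 2.31 ± 0.65, edgeR adjusted p = 0.0196). The interferon-stimulated gene was Parp9, a mono-ADP-ribosyltransferase (log2 7.37 ± 1.38, edgeR adjusted p = 0.000616), in a list with a median of 0.14. The snoRNA host gene was Snhg20, with medians of 54.5 and 0 CPM (log2 5.70 ± 1.28, edgeR adjusted p = 0.00215).

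No cell cycle gene passed in edgeR. Of 32 tested S phase genes 0 had an unadjusted p under 0.05 there and 2 passed in limma, and of 43 G2/M genes these counts were 2 and 2. The list medians were 0.44 and 0.18. The sign of the G2/M median depended on the setting: it was -0.09 with library totals alone, -0.63 within library numbers 17 to 48 and -1.29 with genes detected as a covariate. The summed level of the G2/M genes ran from 2771 to 44718 CPM with a median of 4427 in the Malat1-high group and from 1267 to 31899 CPM with a median of 12938 in the Malat1-low group, so the ranges overlapped widely. Of 25 genes of the actin cytoskeleton 0 passed in edgeR, 4 had an unadjusted p under 0.05, and limma called 4 higher and 1 lower. Of 38 translation factors 0 passed or had an unadjusted p under 0.05 in edgeR, and limma called 2. Glycolysis (15 tested), chaperones of the endoplasmic reticulum (21), p53 targets (5) and histones (6) gave 0 on all 3 counts.

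**Figure D5:**
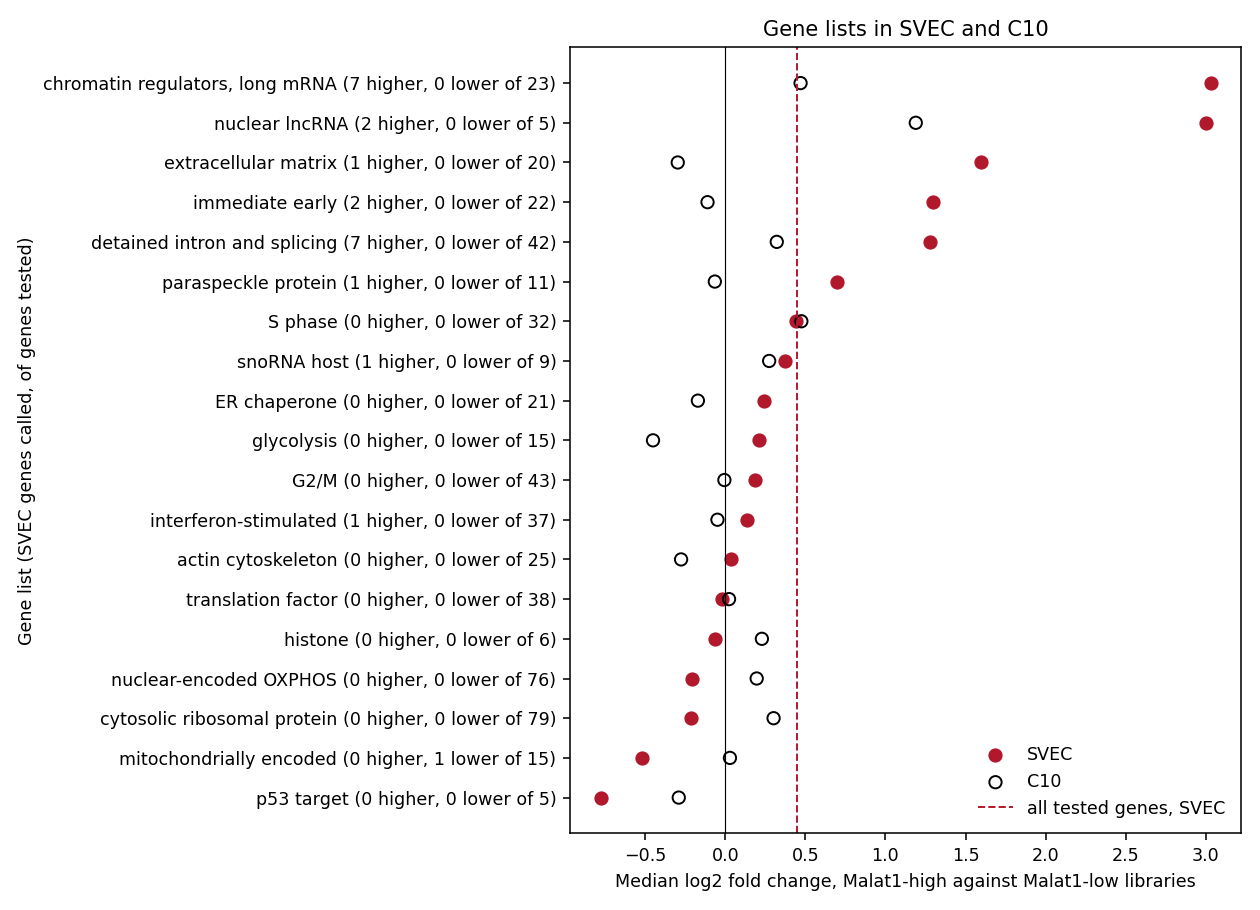
Median log2 fold change of each gene list, Malat1-high against Malat1-low, in SVEC (filled) and C10 (open); row labels give the SVEC members called higher and lower of those tested, and the dashed line is the SVEC median of all tested genes, 0.45. In SVEC the long chromatin regulators and the nuclear long noncoding RNAs lie near 3, at 3.03 and 3.00, an order that reverses in limma, and the mitochondrially encoded genes lie at -0.52.

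The labelled cell type showed little in its markers. Of 18 endothelial genes 9 had 0 counts in all 28 libraries, among them Kdr, Vwf and Cldn5, and 1 could be tested. Pecam1 was detected in 3 Malat1-high and 1 Malat1-low libraries, never above 4.49 CPM. Flt1 was detected in 5 and 2, up to 126 and 55.8 CPM, and Ecscr in 2 and 1, up to 101 and 79.1 CPM. Egfl7 reached 53.8 CPM in 1 Malat1-high library. Plvap, the endothelial gene tested, was detected in 5 and 7 and did not pass (log2 -1.27, edgeR adjusted p = 0.798). All 13 epithelial genes were at 0 in both groups, and of 10 leukocyte genes 7 were, Ptprc included. Of 12 mesenchymal genes 6 were tested and 1 rose, Pdgfrb, detected in 7 and 0 libraries (at least 2.99-fold, edgeR adjusted p = 0.0014). Col1a1 was detected in all 28 libraries and Vim in 26. The summed level of the mesenchymal genes ran from 835 to 8780 CPM in the Malat1-high group and from 616 to 11549 CPM in the Malat1-low group, and its part in the other results was not tested.

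Libraries outside the comparison carried these genes too. The 322 genes called higher by both tools held 1.95 to 4.95% of counts in the Malat1-high group and 0.118 to 0.364% in the Malat1-low group, which follows from the choice of genes. In the 14 libraries between, which did not enter the gene test, they held 0.411 to 1.51%. Genes chosen to be high in one group and near 0 in the other would place most other libraries between those ranges, and the C10 Malat1-low libraries lay at 0.707 to 1.23%, so this position is no sign that the genes follow Malat1. Library 19, with the most Malat1 of these, had counts for 216 of the 322 genes and 8 of the 12 named ones. It was also the deepest SVEC library, with 2831907 counts, and the part of depth in this tally was not tested. Its share of counts on the 322 genes, 1.51%, lay below every Malat1-high library. In SVEC libraries below the depth limit, those with the most Malat1, libraries 24, 12 and 48 at 42893, 32234 and 16205 CPM, gave these genes 2.52%, 3.01% and 1.95% of counts. Library 12 had counts for 154 of the 322 and 11 of the 12, but libraries 24 and 48 for 51 and 47 of the 322 and 4 and 2 of the 12, within the Malat1-low range of 10 to 58 for the 322. The other 3, between 1214 and 2538 CPM of Malat1, gave 0.629 to 1.06%.

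The same rule in C10 gave far fewer calls. There 45 libraries held at least 100000 counts, and Malat1 ran from 1165 to 71160 CPM (median 2844) in the 14 highest and from 5.81 to 262 CPM (median 174) in the 14 lowest, so the medians lay closer than in SVEC. In C10, 24 of 7199 genes passed in edgeR (0.333%) and none in limma, where 603 had an unadjusted p under 0.05. The test of the difference between the lines called 425 of 8038 genes in edgeR (5.29%) and 59 in limma (0.734%). Total counts also differed, with C10 medians of 2268450 and 1967690 against 580545 and 604456 in SVEC, and the part of depth and of the narrower Malat1 range in this difference was not tested. Neat1 was detected in 8 Malat1-high and 6 Malat1-low C10 libraries, up to 184 and 113 CPM (log2 1.03, edgeR adjusted p = 1.00). In the test of the difference between the lines its log2 difference was 10.6 larger in SVEC (edgeR adjusted p = 0.00176). The 10.6 is fitted against SVEC Malat1-low libraries with no Neat1 count, depends on the prior count and bounds nothing.

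Of the 24 genes called in C10, 7 were tested in SVEC and 5 were called in both lines, all higher, which is 20.8% of the C10 calls and 1.21% of the 413 SVEC calls. They were Gm33596, Mrtfb, Lnpep, Fry and Ubr1, named after their values were seen. Gm33596 was higher by 4.74 ± 0.92 on the log2 scale in C10 (edgeR adjusted p = 0.0159), beside 6.63 in SVEC. Mrtfb, a coactivator of serum response factor, had log2 values of 7.14 ± 1.36 in SVEC and 7.00 ± 1.31 in C10 (edgeR adjusted p = 0.00107 and 0.0148). One C10 library, number 1, had 71160 CPM of Malat1 and 598 Neat1 counts, and showed 11 of the 12 genes named in SVEC and 267 of the 322. The next in Malat1, C10 library 11 at 17147 CPM, had no Neat1 count and showed 0 of the 12 and 124 of the 322. The median C10 Malat1-high library showed 5 of the 12, and so did the median Malat1-low one.

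The numbers in the library labels were not spread evenly. Of the Malat1-high libraries 9 carried numbers 1 to 16, against 1 of the Malat1-low libraries and 3 of those between. The labels do not say what the numbers stand for. Within numbers 17 to 48, a restriction chosen after seeing the data, were 5 Malat1-high and 13 Malat1-low libraries. Of 5172 genes tested there, 287 passed in edgeR, 283 higher and 4 lower. Of the 287, 186 were among the 413 called in the main comparison. Among the named genes, the calls of Bckdha, COX1, Fn1, Fosb, Ftl1, Gm40554, Gm42225 and Snhg20 were lost. Within these numbers the Malat1-high libraries held 1336 more genes (exact permutation test, adjusted p = 0.0128) and 2.68 points less mitochondrial share (exact permutation test, adjusted p = 0.0035).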

How the data were processed

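The files deposited by the authors hold whole-number read counts per gene, 1 per library, with 40202 symbols and 5 counters of unassigned reads. Libraries were SMART-Seq v4 Plus full-length cDNA, per the labels' protocols. FastQC, STAR and HTSeq were used, per the submitters' processing notes. Versions, genome build, annotation, strand setting and the handling of intron reads are not given in the sources used here. Unassigned reads stayed out of totals and tests, and their levels are given in the report.

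SVEC libraries with at least 100000 gene counts were ranked by Malat1 CPM, and the 14 highest were compared with the 14 lowest. Malat1 was then removed and never tested. Genes with a count in at least 50% of a group's libraries were tested by the quasi-likelihood test of edgeR 4.0.16 (R 4.3.3, TMM, robust), with Benjamini-Hochberg adjustment over all tested genes. limma 3.58.1 on log2(CPM + 1) and DESeq2 1.42.0 were alternatives. Differences of means in 5 library measures were tested by two-sided permutation (SciPy 1.17.1) and adjusted together. C10 was treated the same way, and 1 model of 56 libraries tested the difference between the lines. Further alternatives were other filters, scalings, covariates, depth limits and group sizes, thinning, a continuous Malat1 term and leaving out each library.

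Genes were named by rule: the nuclear noncoding list, the 12 largest folds called by edgeR and limma with detection in 75% of the higher group (on the lower side, where 3 were eligible, the 6 smallest p-values among genes with that detection in the Malat1-low group), and 2 members of each other list. The groups, members and lists were chosen with earlier results of these data known. The fit was tested on simulated counts over 5404 genes: of 187 genes given a log2 change of 4, edgeR recovered 47.1%, with 17.8% of calls false, and both tools together 20.3% with none false. At a change of 2, edgeR recovered 6.67% of 180 genes. With no change, edgeR called 4 of 5403 genes. The simulation raised as many genes as it lowered and set no general difference in genes detected, unlike the data. No 2 libraries agreed within sampling noise: the closest pair of SVEC libraries had a chi-square of 23.8 per degree of freedom. Symbols were matched to GENCODE M21 for lengths and to RefSeq GRCm38.p6 for gene class; 1472 symbols were not in the latter.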

Additional observations from a re-analysis of the deposited data

Results flagged for a closer look

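For 10 of the named genes the change in SVEC was larger than in C10 by the test of that difference in edgeR and in limma. Named genes were in large part picked for large folds or small p-values in these same SVEC libraries, which favours a larger SVEC difference. The 10 are thus a description and not a count over all genes, where edgeR called 425 of 8038 and limma 59. The differences between the 2 log2 fold changes were 10.6 for Neat1, 9.44 for Mir100hg, 8.15 for Mecom, 8.52 for Ppp1r12b, 7.65 for Setbp1, 10.3 for Dhx30, 6.53 for Prpf4b, 9.06 for Nktr, 10.8 for Huwe1 and 13.6 for Nr4a1. The adjusted p-values in edgeR ran from 0.000154 for Nr4a1 to 0.0227 for Prpf4b. Several of these values are fitted against a group with no counts, depend on the prior count and bound nothing.

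In C10 the same genes were detected in part of both groups. Nr4a1 was found in 1 Malat1-high and 3 Malat1-low C10 libraries, up to 0.692 and 30.7 CPM. Dhx30 was found in 7 and 6, Nktr in 5 and 7, and Huwe1 in 5 and 6. Huwe1 averaged 14.1 CPM in the C10 Malat1-high libraries and 61.6 CPM in the Malat1-low ones.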

How the results depend on the processing

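The 413 genes called moved by over 1.5 times to 762 with limma, 1080 with detection in 25% of a group, 35 with detection in 90%, 3341 with no filter and 195 with genes detected as a covariate; without 1 library each, counts ran from 300 to 459. The other alternatives gave 287 to 606. The C10 count of 24 fell to 0 with limma and to 0 with the 90% filter, and the count of differences between lines fell from 425 to 59 and 35. With a depth limit of 50000 counts the difference in genes detected was 1466 (permutation test, adjusted p = 0.0846) and the mitochondrial difference turned to 1.70 points (adjusted p = 0.492); with 10 libraries a group it was -1.42 points (adjusted p = 0.144). Of 1287 values for the 31 named genes that passed, 1129 kept their call, 157 lost it and 1 turned, the Gm31340 log2 fold change, from -4.50 to 0.0671 with genes detected as a covariate. Fosb lost it under 29 settings, Ftl1 26, COX1 24, Gm42225 24 and Zc3h6 21. The filters changed how many genes were tested; otherwise the cause was not tested. No paired analysis was possible because the 28 libraries come from 1 labelled group and share no replicate number. Depth limits genes near 0: 3 counts were worth 1.43 to 15.0 CPM in Malat1-low libraries.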
